A study of Mus musculus with 9 samples.

Results

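Long noncoding RNA (lncRNA) genes that were expressed in mouse B cells or macrophages were described. They were the genes of type lncRNA whose mean over the 3 libraries of a group reached 10 FPKM (fragments per kilobase of exon, scaled to the depth of the library) in at least 1 of 3 groups. Of 9950 lncRNA genes in the table of 55322 genes, 140 (1.41%) met this rule, and 6837 had at least 1 read in any library. Peritoneal macrophages (PMs, sorted as CD11b+F4/80+) came from naive wild-type C57BL/6 mice (C57BL/6J in the methods of the study). CD11b- B cells and CD11b+ B cells were sorted from the bone marrow (BM) of wild-type C57BL/6 mice 48 h after lipopolysaccharide (LPS) at 5 mg/kg, and this BM had first been depleted of cells bound by antibodies to TER119, NK1.1, Gr-1, CD8, CD4 and CD3. Each group had 3 libraries. B cells and PMs differed in cell type, tissue and LPS treatment at once, so these cannot be told apart in any comparison with PMs. The labels did not say whether replicates were separate animals. The methods of the study keep the SD for biological replicates and used it for these libraries. If replicates shared animals, p-values measure technical spread alone.

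An lncRNA is transcribed and often spliced like a messenger RNA, but most are not known to be translated. Some are cut up after transcription: the hosts of small nucleolar RNAs (snoRNAs) carry them in introns, and microRNA hosts carry a hairpin that is processed into mature microRNAs. Others act in the nucleus, such as Malat1 in speckles, Neat1 as the scaffold of paraspeckles and Xist on the inactive X chromosome. Many lie on the strand opposite a protein-coding gene. The libraries did not mark strand, so where exons of both overlap their reads cannot be told apart.

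Libraries held 18014658 to 35251215 reads on genes. The 140 lncRNA genes took 0.428 to 0.967% of these in PMs. Their share was 0.559 to 0.594% for CD11b- and 0.565 to 0.881% for CD11b+ B cells, with the highest shares in PM replicate 1 and CD11b+ B cell replicate 3. The labelled cell types carried their markers. The 10 B cell markers summed to 6680 to 6995 FPKM in CD11b- B cells and, lower, to 5245 to 5925 FPKM in CD11b+ B cells. In PMs they summed to 61.4 to 118 FPKM. The 10 macrophage markers summed to 20386 to 54731 FPKM in PMs. Their sums were 35.0 to 47.9 FPKM in CD11b- and 83.7 to 282 FPKM in CD11b+ B cells. PM replicate 1 stood apart for these genes. Of the 58 lncRNA genes at 10 FPKM or more in PMs, 45 (77.6%) were highest in replicate 1, against 41.2% of protein-coding genes at the same level, with a median ratio of 1.69 to the mean of the other PM libraries. In CD11b+ B cells, 64 of 98 (65.3%) were highest in replicate 3, against 31.7% of protein-coding genes, with a median ratio of 1.33.

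The group means that chose the genes also sort them, so the classes that follow are descriptions. Shared genes reached 10 FPKM in all 3 groups, B cell specific genes reached it in a B cell group and stayed under 1 FPKM in PMs, and macrophage specific genes reached it in PMs and stayed under 1 FPKM in both B cell groups. There were 24 shared (17.1%), 29 B cell specific (20.7%), 23 macrophage specific (16.4%) and 64 intermediate genes (45.7%). Of 5693 protein-coding genes with the same minimum, 50.2% were shared, 3.76% B cell specific, 3.93% macrophage specific and 42.1% intermediate. The lncRNA genes were lower in level, with a median highest group mean of 18.8 FPKM against 24.7 FPKM for protein-coding genes. Within bands of that highest mean the shares of specific genes were 39.7% of lncRNA against 9.77% of protein-coding genes at 10 to 20 FPKM, 35.9% against 7.01% at 20 to 50 FPKM and 32.1% against 5.37% above. Without PM replicate 1, 33 genes were B cell specific, 20 macrophage specific and 25 shared. With median-ratio scaling of the libraries the order of the specific classes turned, with 22 B cell specific and 28 macrophage specific genes. The shared genes then numbered 30.

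**Figure D1:**
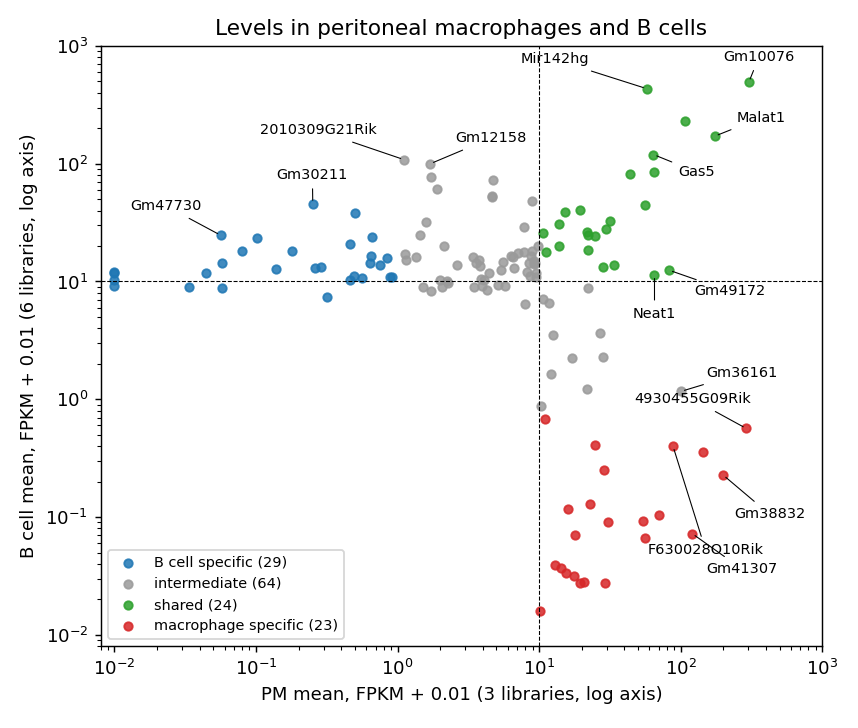
Mean FPKM of each of the 140 lncRNA genes in the 3 PM libraries (x axis) and the 6 B cell libraries (y axis), both plus 0.01 on log axes, with dashed lines at 10 FPKM and colours for the 4 classes. The 29 B cell specific genes lie at the left, under 1 FPKM in PMs, and the 23 macrophage specific genes at the bottom right.

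The rule admitted genes at all levels above its threshold. The highest group mean was 100 FPKM or more for 12 genes and under 20 FPKM for 73. Just inside the threshold were Gm16701 (ENSMUSG00000102548) at 10.1 FPKM and Zeb2os at 10.3 FPKM, both in PMs. Just outside were 2610507I01Rik at 9.88 FPKM in PMs and Snhg12 at 9.81 FPKM in CD11b+ B cells. In all, 58 genes reached the minimum in PMs, 86 in CD11b- B cells and 98 in CD11b+ B cells, of which 33, 9 and 20 reached it in that group alone. By the GENCODE M21 annotation (GRCm38), 56 were long intergenic, 50 antisense, 21 processed transcripts, 7 sense intronic and 4 bidirectional promoter genes, while 2 (Gm10134 and Gm47283) were annotated there as protein coding.

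**Figure D2:**
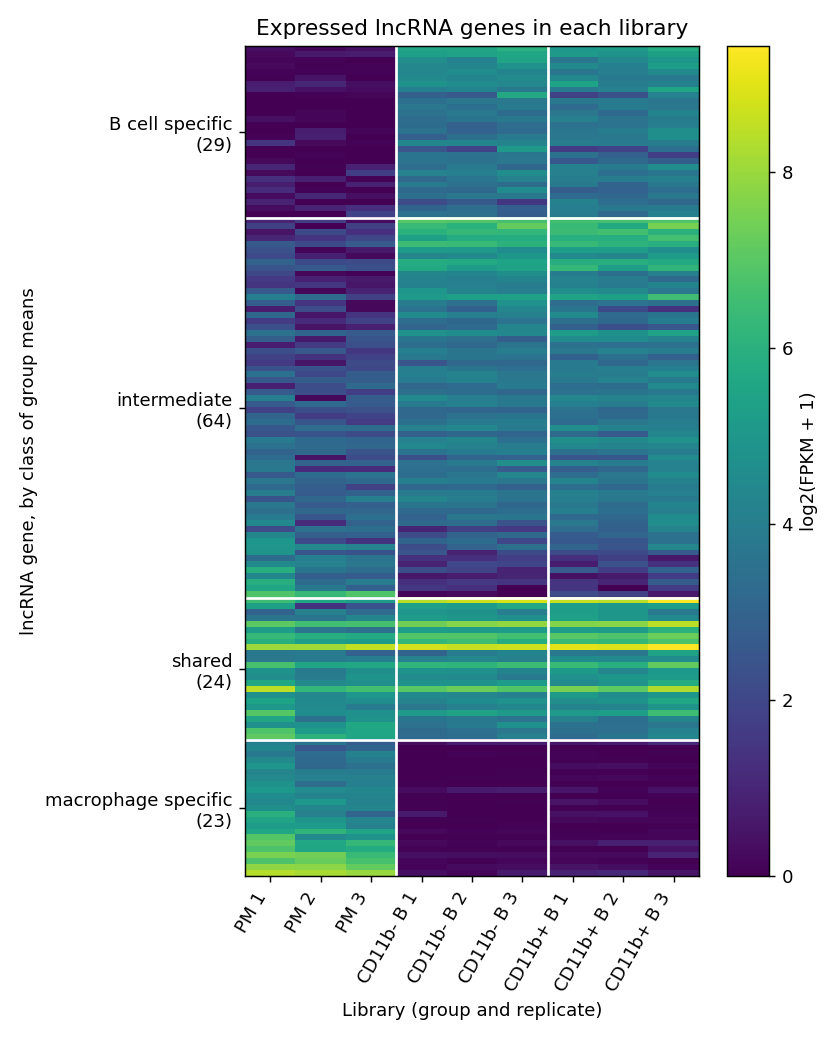
Levels of the 140 lncRNA genes (rows, grouped by class and ordered by the ratio of B cell to PM mean) in the 9 libraries (columns), as log2(FPKM + 1). The 29 B cell specific genes are bright in the 6 B cell libraries and dark in PMs, and the 23 macrophage specific genes show the opposite.

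The annotation placed a microRNA inside 5 of the 140 genes. Those in the list of known microRNA hosts were Mir142hg, a shared gene, and F630028O10Rik, a macrophage specific gene, and the others were Snhg20 (Mir6516), Gm35853 (Mir1941) and Gm15987 (Mir7649). Mir142hg (ENSMUSG00000084796, chr11:87755577-87757270, plus strand) holds Mir142, whose products are abundant in blood cells. It measured 88.9, 47.9 and 36.1 FPKM in PMs, 342, 403 and 459 FPKM in CD11b- B cells and 383, 351 and 664 FPKM in CD11b+ B cells. No B cell library came near the PM range. F630028O10Rik (ENSMUSG00000078122, chrX:96239926-96243636, plus strand) holds Mir223, a microRNA of the myeloid lineage that is abundant in neutrophils. It measured 140.1, 48.8 and 76.1 FPKM in PMs, 0.155, 0.0696 and 0.170 FPKM in CD11b- B cells and 0.341, 0.765 and 0.844 FPKM in CD11b+ B cells. The mature microRNAs themselves were not measured. The RefSeq sequences (GRCm38.p6, plus strand) of the listed hosts' products are shown because they are what these hosts are processed into, with the seed, bases 2 to 8, in capitals. No seed is shared among these 4.
mmu-miR-142a-5p, chr11:87756867-87756887: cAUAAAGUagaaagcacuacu
mmu-miR-142a-3p, chr11:87756903-87756925: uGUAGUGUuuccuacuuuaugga
mmu-miR-223-5p, chrX:96242842-96242864: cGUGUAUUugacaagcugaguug
mmu-miR-223-3p, chrX:96242884-96242905: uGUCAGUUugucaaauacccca

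The host difference between B cells and PMs was tested for Mir142hg, which passed the level rule in all 3 groups. On log2(FPKM + 1) it was 3.04 (SE 0.38) higher in CD11b+ B cells (limma, adjusted p = 0.000675) and 2.87 (SE 0.32) higher in CD11b- B cells (limma, adjusted p = 0.000438). Of the 10 microRNA hosts listed, 8 could be tested against PMs, and in both comparisons 2 were higher in B cells (Mir142hg and Mir155hg) and 3 lower (F630028O10Rik, Mir22hg and Mir99ahg). Of all genes tested, limma called 21.5% higher and 8.78% lower in CD11b+ and 25.8% and 11% in CD11b- B cells. Median-ratio scaling gave 2 higher and 4 lower in the latter, where it called 15.9% and 15% of all genes, and leaving out PM replicate 1 gave 3 higher and 3 lower in the former. The fall of F630028O10Rik is a description, since it was chosen by its PM level. In CD11b+ against CD11b- B cells it had 197 against 43 reads and a log2 difference of 0.53 (SE 0.18, limma adjusted p = 0.549), with no overlap between the libraries of both groups.

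The 29 B cell specific genes had group means of 3.50 to 50.5 FPKM for CD11b- and 4.93 to 40.7 FPKM for CD11b+ B cells, against 0 to 0.906 FPKM in PMs. The 8 with the highest B cell mean are described first. Gm30211 (ENSMUSG00000105646, chr6:70719074-70740554, plus strand) spans Igkc, the constant region of the kappa light chain, on the same strand and with no shared exon. It measured 44.0, 44.2 and 63.3 FPKM in CD11b- B cells, 31.8, 34.7 and 55.5 FPKM in CD11b+ B cells and 0.271, 0.133 and 0.322 FPKM in PMs, a B cell mean 188-fold higher. The B cell markers summed in PMs to the 61.4 to 118 FPKM given above, and their part in these low PM values was not tested.

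Gm13012 (ENSMUSG00000085823, chr4:137882370-137883937, minus strand) lies antisense to Ece1, the endothelin-converting enzyme. It measured 38.5, 42.1 and 47.2 FPKM in CD11b- B cells, 32.6, 27.9 and 39.9 FPKM in CD11b+ B cells and 0.193, 0.595 and 0.689 FPKM in PMs, 77.2-fold. Ece1 itself had a mean of 4.79 FPKM in B cells and 0.950 FPKM in PMs. Gm47730 (ENSMUSG00000114791, chr13:37439593-37440454, minus strand), 20557 bases from Ly86, measured 24.2, 16.9 and 44.4 FPKM in CD11b- and 12.1, 20.4 and 30.04 FPKM in CD11b+ B cells. It rested on 2 reads in all PM libraries, so no fold is given. Ly86, which pairs with the receptor RP105, did not follow it, at 92.6 FPKM in B cells and 86.7 FPKM in PMs.

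Gm43305 (ENSMUSG00000105703, chr14:54292443-54297456, minus strand) measured 27.3, 22.8 and 19.6 FPKM in CD11b- B cells, 43.1, 14.9 and 16.6 FPKM in CD11b+ B cells and 0.675, 1.02 and 0.267 FPKM in PMs, 36.8-fold. Within CD11b+ B cells replicate 1 was far above the others. Gm16150 (ENSMUSG00000085391, chr1:38235420-38246666, plus strand) lies antisense to Aff3, a nuclear protein of lymphoid cells, as does Gm16151. It measured 19.8, 18.8 and 27.3 FPKM in CD11b- B cells, 21.4, 15.7 and 37.9 FPKM in CD11b+ B cells and 0.183, 0.0375 and 0.0543 FPKM in PMs, 256-fold, or 511-fold without PM replicate 1. Aff3 had means of 16.7 FPKM in B cells and 0.479 FPKM in PMs.

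Gm15675 (ENSMUSG00000086825, chr1:130429781-130437191, minus strand) lies 1836 bases from Cd55, a complement inhibitor on the cell surface. It measured 15.7, 18.1 and 13 FPKM in CD11b- B cells, 13.6, 17.2 and 47.3 FPKM in CD11b+ B cells and 0.754, 0.391 and 0.202 FPKM in PMs, 46.4-fold, or 70.3-fold without PM replicate 1. The high CD11b+ mean came from replicate 3. 4930426D05Rik (ENSMUSG00000043168, chr18:21651448-21656105, plus strand) lies antisense to Klhl14 with overlapping exons, and both were B cell genes here. The lncRNA gene measured 19.4, 22.9 and 18.3 FPKM in CD11b- B cells, 12.2, 15.5 and 21 FPKM in CD11b+ B cells and 0.0740, 0.0684 and 0.0660 FPKM in PMs. Klhl14 had means of 15.9 FPKM in B cells and 0.102 FPKM in PMs, and with unmarked strand the reads of shared exons belong to either. Arhgap27os3 (ENSMUSG00000085887, chr11:103344753-103350124, plus strand) lies antisense to Arhgap27, which encodes a GTPase-activating protein. It measured 20.9, 18.3 and 22 FPKM in CD11b- B cells, 20.2, 14.3 and 13 FPKM in CD11b+ B cells and 0.0407, 0.452 and 0.0182 FPKM in PMs. The fold of 106 rested on PM replicate 2, without which it was 615.

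The 4 genes with no PM read were named after their values were seen. Gm43388 lies near Iglc2, a constant region of the lambda light chain, and had no read in PMs. With the 3 reads over the group that a count of 0 allows, its B cell level was at least 334-fold higher. Gm12064, antisense to Bcl11a, a transcription factor of B cell development, also had no PM read and was at least 123-fold higher. 4930439D14Rik (at least 95.7-fold) and Gm12678 were the others. These limits cover counting error only. Gm12678 and Gm34095, named after their values were seen, were high mainly in replicate 3 of each B cell group. Gm12678 measured 4.59, 2.73 and 33.3 FPKM in CD11b- and 2.16, 2.76 and 9.88 FPKM in CD11b+ B cells. Gm34095 measured 6.4, 5.24 and 50.8 FPKM in CD11b- and 2.62, 4.05 and 16.9 FPKM in CD11b+ B cells. For both, a mean of 3 libraries is set by 1 of them.

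Some of the most abundant B cell lncRNA genes missed the class only because PMs were slightly above 1 FPKM, and they are also named after their values were seen. 2010309G21Rik, antisense to Iglc3, measured 125, 120.4 and 99.0 FPKM in CD11b- B cells, 93.9, 99.9 and 112 FPKM in CD11b+ B cells and 0.848, 2.24 and 0.216 FPKM in PMs. Gm12158, antisense to Ebf1, the transcription factor that specifies the B lineage, measured 82.0, 63.8 and 141 FPKM in CD11b- B cells, 80.1, 52.0 and 180.5 FPKM in CD11b+ B cells and 2.64, 0 and 2.43 FPKM in PMs. It stood above Ebf1, at 35.4 FPKM in B cells and 0.328 FPKM in PMs.

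The 23 macrophage specific genes had PM means of 10.1 to 291 FPKM and group means of at most 0.542 FPKM in CD11b- and 0.788 FPKM in CD11b+ B cells. 4930455G09Rik (ENSMUSG00000085761, chr4:142017898-142028996, plus strand) was the highest. It measured 333, 289 and 251 FPKM in PMs, 0.285, 0.0910 and 0.594 FPKM in CD11b- B cells and 0.865, 1.09 and 0.405 FPKM in CD11b+ B cells, 524-fold. Its neighbour Tmem51, 1996 bases away, had means of 73.7 FPKM in PMs and 0.667 FPKM in B cells. Gm38832 (ENSMUSG00000108371, chr6:72162849-72167707, plus strand) lies 8278 bases from St3gal5, the synthase of ganglioside GM3. It measured 233, 223 and 142 FPKM in PMs, 0.0749, 0.215 and 0.234 FPKM in CD11b- B cells and 0.426, 0.287 and 0.0709 FPKM in CD11b+ B cells, 916-fold. St3gal5 was at 140.2 FPKM in PMs and 3.56 FPKM in B cells.

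Gm16104 (ENSMUSG00000085327, chr10:81409575-81411579, plus strand) lies antisense to Nfic, a transcription factor, with overlapping exons. It measured 183, 164 and 83.5 FPKM in PMs, 0.299, 0.286 and 0.233 FPKM in CD11b- B cells and 0.170, 0.191 and 0.920 FPKM in CD11b+ B cells, 411-fold. Nfic had means of 32.9 FPKM in PMs and 2.38 FPKM in B cells, lower in PMs than its antisense gene. Gm41307 (ENSMUSG00000115405, chr15:38385634-38404154, minus strand) measured 110.0, 149 and 102 FPKM in PMs and at most 0.0993 FPKM in any B cell library, where it had 8 reads in all. The fold of 1929 was the highest of the class with all libraries, a rank that rested on few reads. Without CD11b+ replicate 3 it was 1607, below others of the class, with 4933417E11Rik at 3562. Its nearest protein-coding gene in the table, Azin1, an inhibitor of antizyme, was 83273 bases away and ran the other way, at 6.36 FPKM in PMs and 22.9 FPKM in B cells.

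F630028O10Rik, described above, lies 3567 bases from Vsig4, a complement receptor of resident macrophages, which had means of 202 FPKM in PMs and 0.276 FPKM in B cells. Gm48832 (ENSMUSG00000111840, chr9:85332352-85348065, minus strand) measured 109.7, 47.4 and 54.3 FPKM in PMs and had a B cell mean of 0.0949 FPKM, 743-fold, or 1876-fold without CD11b+ replicate 3. Platr26 (ENSMUSG00000064263, chr2:71719417-71730966, plus strand), 14650 bases from the integrin gene Itga6, measured 119, 21.2 and 26.8 FPKM in PMs and had 7 reads in all B cell libraries. Its PM mean of 55.8 ± 55.2 FPKM (SD, n = 3) came largely from replicate 1. Plxna4os1 (ENSMUSG00000086763, chr6:32511073-32515576, plus strand) measured 46.6, 71.1 and 44.5 FPKM in PMs and had a B cell mean of 0.0819 FPKM, 659.9-fold. It stood above Plxna4, the semaphorin receptor gene that it lies antisense to, at 1.86 FPKM in PMs and 0.0200 FPKM in B cells. Gm16587, antisense to Selp (P-selectin) with overlapping exons and named after its values were seen, measured 25.1, 18.8 and 18.6 FPKM in PMs and had 3 reads in all B cell libraries. Tnfsf13os, named likewise, measured 20.1, 31.7 and 16.7 FPKM in PMs and had 23 reads in B cells. It lies antisense to Tnfsf12, which encodes the cytokine TWEAK.

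Promoters were compared because the classes were set by level alone. RefSeq (GRCm38.p6) gave a promoter, 250 bases before to 50 bases after the start, for 69 of the 140 genes, matched by symbol, chromosome and strand. The RefSeq start lay within 50 bases of the GENCODE start for 44 of the 69. Motifs were counted in all 69, so for the rest the stretch searched may not be the promoter of the gene measured. Short motifs that bear on these cells were searched on both strands, and any overlap of a match with another was allowed. GGAAGT, the core of sites for ETS factors such as PU.1, was in 26 of the 69 promoters, against 23.8% of all 32851 promoters. It was in 3 of 12 B cell specific and 6 of 14 macrophage specific promoters. The longer form GAGGAAGT, which contains GGAAGT, was in 4, all of intermediate genes, against 3.20% of all. The interferon response element, a pair of GAAA separated by any 2 bases, was in 4 against 3.44%, and TGANTCA, of AP-1 sites, in 3 against 7.81%. The EBF1 motif, TCCC and GGGA separated by any 2 bases, was in 0 of the 69 and in 0.904% of all promoters. TATAAA was in 11 against 13.6%. A match describes letters and not a site in use.

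The 4 promoters that follow belong to genes named above and were chosen to show matches in B cell specific and macrophage specific genes. Capitals mark the matches, which are GGAAGT in Gm13012, TATAAA in Gm43305, TGANTCA in Gm16104 and both GGAAGT and the interferon response element in F630028O10Rik, each on either strand. Each is printed along its own gene's strand.
Gm13012, chr4:137883913-137884212, minus strand: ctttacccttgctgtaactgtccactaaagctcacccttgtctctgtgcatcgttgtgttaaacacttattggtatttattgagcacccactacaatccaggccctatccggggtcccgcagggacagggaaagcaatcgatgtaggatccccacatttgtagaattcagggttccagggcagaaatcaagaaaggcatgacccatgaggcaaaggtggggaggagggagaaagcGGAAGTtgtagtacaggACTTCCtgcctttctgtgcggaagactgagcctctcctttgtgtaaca
Gm43305, chr14:54297439-54297738, minus strand: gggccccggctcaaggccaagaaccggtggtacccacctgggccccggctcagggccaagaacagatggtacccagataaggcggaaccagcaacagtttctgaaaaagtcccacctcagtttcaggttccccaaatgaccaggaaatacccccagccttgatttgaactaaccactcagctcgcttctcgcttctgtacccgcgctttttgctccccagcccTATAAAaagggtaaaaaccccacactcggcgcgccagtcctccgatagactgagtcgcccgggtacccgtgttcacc
Gm16104, chr10:81409325-81409624, plus strand: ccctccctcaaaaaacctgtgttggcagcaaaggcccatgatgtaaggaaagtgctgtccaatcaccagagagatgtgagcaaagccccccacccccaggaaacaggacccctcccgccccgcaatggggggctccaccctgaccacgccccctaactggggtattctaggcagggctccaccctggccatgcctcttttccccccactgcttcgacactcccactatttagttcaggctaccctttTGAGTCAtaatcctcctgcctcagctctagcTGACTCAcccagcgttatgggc
F630028O10Rik, chrX:96239676-96239975, plus strand: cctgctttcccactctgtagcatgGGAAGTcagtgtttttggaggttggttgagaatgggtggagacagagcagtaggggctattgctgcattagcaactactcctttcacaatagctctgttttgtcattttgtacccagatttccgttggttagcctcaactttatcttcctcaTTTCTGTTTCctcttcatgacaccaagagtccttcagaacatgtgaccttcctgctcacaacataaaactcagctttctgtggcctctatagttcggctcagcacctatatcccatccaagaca

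Position was a property that the level rule did not use. Of the 140 genes, 73 overlapped a protein-coding or immunoglobulin gene, 60 of them on the opposite strand, and exons overlapped in 29 of these pairs. In 4 pairs the partner was listed at 0 in B cells and PMs, all with intermediate genes. In 59 of the other 69 pairs, lncRNA gene and partner were ordered in the same way between the B cell and PM means. Pairs with overlapping exons are included, where reads of shared exons can favour the same order. As background, 66.4% of 10786 protein-coding and immunoglobulin genes with a group mean of at least 1 FPKM had a B cell mean above the PM mean. Among B cell specific genes 19 of 29 overlapped a partner, and 17 of the 19 partners were higher in B cells. The exceptions were Hsd11b1, at 4.86 FPKM in B cells and 5.25 FPKM in PMs, opposite 4930570N18Rik, and Ldlrad3, at 1.02 and 2.7 FPKM, opposite Gm13919. Among macrophage specific genes 7 of 23 overlapped a partner, and all 7 partners were lower in B cells. Where no partner was overlapped, the nearest neighbour was higher in B cells for 9 of 10 B cell specific and 4 of 16 macrophage specific genes, with the neighbour of 1 of the 16 listed at 0 in all groups. Exons overlapped the partner in 4 genes of each of these classes, where the order could come from reads of the partner. In the other overlapping genes, reads from introns of the partner could also be counted for the lncRNA gene, as strand was not marked. How far such reads set the order was not tested.

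**Figure D3:**
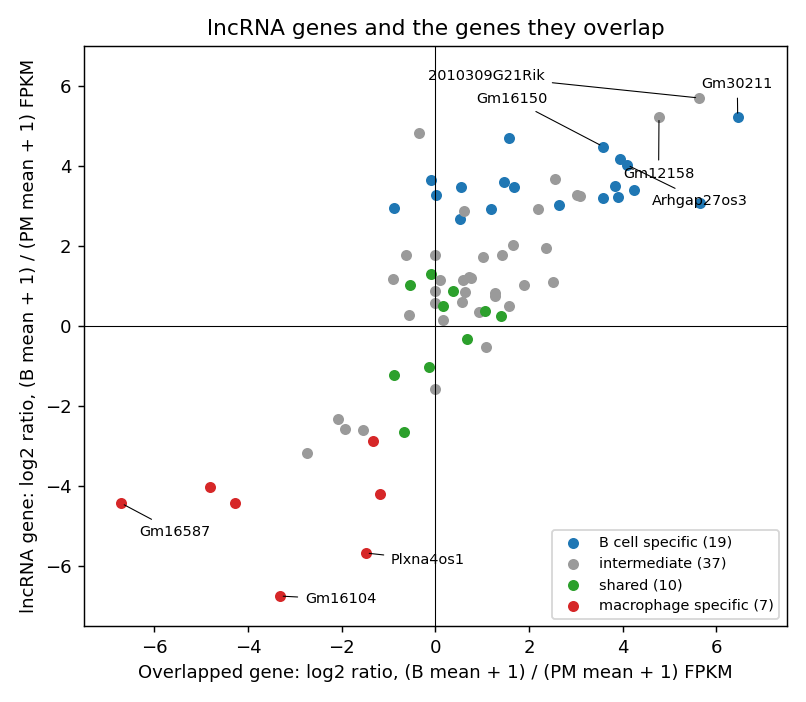
For the 73 lncRNA genes that overlap a protein-coding or immunoglobulin gene, the log2 ratio of B cell to PM mean (FPKM + 1) of the overlapped gene (x axis) and of the lncRNA gene (y axis), coloured by class. All 7 macrophage specific pairs lie at the lower left and 17 of the 19 B cell specific pairs at the upper right.

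Against PMs, 70 lncRNA genes were higher and 32 lower in CD11b+ B cells (limma on log2(FPKM + 1), adjusted p under 0.05), where 30.3% of 22102 genes tested were called (21.5% as higher, 8.78% as lower). For CD11b- B cells the counts were 70 higher and 34 lower, where 36.7% of 20985 genes were called, 25.8% higher and 11% lower. Both comparisons share the PM libraries. Choice of a gene by its level in 1 group favours a higher value there, so nothing is read from these counts. Genes at 10 FPKM or more in both groups compared do not rest on 1 group alone. Of 25 such genes in the first comparison 7 were higher and 3 lower, where 38.7% of 3056 genes of any type at that level in both groups were called, 27.3% higher and 11.4% lower. Of 24 in the second, 5 were higher and 2 lower, where 47.5% of 3003 such genes were called, 32.6% higher and 14.9% lower. The higher calls depended on scaling. Over all genes the median log2 difference was 0.25 and 0.24, and with median-ratio scaling it was 0.11 and 0.06, single genes moving by a median of -0.27 and -0.29. That scaling left 1 gene higher and 4 lower in the first comparison and 1 higher and 7 lower in the second, where it called 9.16% of the 3056 genes higher and 22.8% lower, and 13.4% and 28% of the 3003. Leaving out single libraries gave 3 to 8 higher in the first and 2 to 9 in the second, against 14.5 to 29.9% of the 3056 and 21.9 to 37.3% of the 3003 genes, with 8 and 9 reached without PM replicate 1. The fewest were 3 without CD11b+ replicate 1, and 2 without CD11b- replicate 2. Without CD11b+ replicate 2 or PM replicate 2 the first comparison gave 4, and without CD11b- replicate 1 the second gave 3.

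Neat1 was lower in B cells than in PMs. Neat1 (ENSMUSG00000092274, chr19:5824708-5845478, minus strand) measured 114, 36.5 and 45.8 FPKM in PMs, 8.63, 9.84 and 12.3 FPKM in CD11b- B cells and 10.3, 10 and 17.1 FPKM in CD11b+ B cells. No B cell library reached the PM range. It fell by 2.16 on the log2 scale in CD11b+ B cells (SE 0.42, limma adjusted p = 0.00615) and by 2.39 in CD11b- B cells (SE 0.40, limma adjusted p = 0.00297), and median-ratio scaling kept both calls at -2.7 and -2.93. Malat1 (ENSMUSG00000092341, chr19:5795690-5802672, minus strand), its neighbour on the chromosome, overlapped between groups. It measured 354, 73.9 and 94.8 FPKM in PMs, 125, 157 and 116 FPKM in CD11b- B cells and 179.6, 133 and 317 FPKM in CD11b+ B cells. PM replicate 1 exceeded the other PM libraries for both genes. The Malat1 differences of 0.53 (SE 0.58, limma adjusted p = 0.487) and -0.04 (SE 0.54, limma adjusted p = 0.955) did not pass. Without PM replicate 1 they were 1.22 (limma, adjusted p = 0.0435) and 0.65 (limma, adjusted p = 0.0405), both called, and with median-ratio scaling -0.03 and -0.60.

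Gm49172 and Gm27252, named after their values were seen, were also lower. Gm49172 (ENSMUSG00000115049, chr15:95972739-95994129, minus strand) lies antisense to the lipid scramblase gene Ano6, with overlapping exons. It measured 135, 67.3 and 46.5 FPKM in PMs, 8.81, 9.38 and 16.4 FPKM in CD11b- B cells and 8.78, 11.7 and 19.7 FPKM in CD11b+ B cells. It fell by 2.47 on the log2 scale in CD11b+ B cells (SE 0.42, limma adjusted p = 0.00326) and by 2.65 in CD11b- B cells (SE 0.40, limma adjusted p = 0.00186). Gm27252 (ENSMUSG00000098708, chr7:63896533-63899698, plus strand), antisense to the transcription factor gene Klf13, measured 25.7, 27.0 and 48.5 FPKM in PMs, 10.7, 14.3 and 25.5 FPKM in CD11b- B cells and 10.4, 10 and 12.4 FPKM in CD11b+ B cells. It fell by 1.49 (SE 0.27, limma adjusted p = 0.00452) in CD11b+ B cells, and the difference of -0.99 (SE 0.36, limma adjusted p = 0.0667) in CD11b- B cells did not pass. The latter was called at -1.53 with median-ratio scaling (limma, adjusted p = 0.0182) and at -1.32 without CD11b- replicate 3 (limma, adjusted p = 0.0315).

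Of the other abundant shared genes, higher values in B cells rested on the scaling. Gm10076 (ENSMUSG00000060143), the most abundant of all 140, measured 263, 268 and 378 FPKM in PMs, 438, 389 and 413 FPKM in CD11b- B cells and 531, 492 and 688 FPKM in CD11b+ B cells. Its difference of 0.91 (SE 0.25, limma adjusted p = 0.0276) in CD11b+ B cells was 0.35 with median-ratio scaling (limma, adjusted p = 0.416), and that of 0.46 in CD11b- B cells turned to -0.10. Norad, an RNA that binds Pumilio proteins, measured 11.4, 11.5 and 18.5 FPKM in PMs, 35.7, 30.9 and 25.7 FPKM in CD11b- B cells and 40.8, 30.4 and 21.6 FPKM in CD11b+ B cells. Its differences of 1.10 (limma, adjusted p = 0.0230) and 1.13 (limma, adjusted p = 0.00796) became 0.57 and 0.59 with that scaling and lost the call. In CD11b+ B cells the calls were also lost without 1 library: that of Gm10076 in 5 of 6 cases (limma, adjusted p = 0.0565 to 0.0885), and that of Norad without CD11b+ replicate 1 or 2 or PM replicate 1 or 2 (limma, adjusted p = 0.0538 to 0.0907). Without PM replicate 3 Gm10076 was called in CD11b- B cells at 0.63 (limma, adjusted p = 0.0306). Of the 12 nuclear and dosage RNAs listed, 4 belonged to the 140 genes and 10 were tested, and in each comparison with PMs 2 were higher (Norad and Ftx) and 1 lower (Neat1). These shares lie near the background of 21.5% higher and 8.78% lower in CD11b+, and 25.8% and 11% in CD11b- B cells. Median-ratio scaling gave 1 higher and 1 lower, and 1 higher and 2 lower, where it called 12.6% and 12.2%, and 15.9% and 15%, of all genes. Without PM replicate 1, 3 were higher in CD11b+ and 4 in CD11b- B cells, and without CD11b+ replicate 1 or 2, 0 were higher in CD11b+ B cells.

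Xist (ENSMUSG00000086503), which coats the inactive X chromosome, measured 15.2, 5.65 and 6.70 FPKM in PMs, 13.5, 13.4 and 11.3 FPKM in CD11b- B cells and 16.4, 13.4 and 16.4 FPKM in CD11b+ B cells. The Y-linked genes Ddx3y, Uty, Kdm5d and Eif2s3y had 0 reads in all 9 libraries. Among 10 immune RNAs listed, 9 were in the table and 2 belonged to the 140 genes. AW112010, an RNA induced in activated immune cells, measured 60.5, 36.8 and 35.0 FPKM in PMs, 74.2, 90.5 and 56.5 FPKM in CD11b- B cells and 82.4, 75.9 and 107 FPKM in CD11b+ B cells. Its difference from PMs was 1.01 (SE 0.26, limma adjusted p = 0.0194) in CD11b+ B cells, or 0.46 with median-ratio scaling (limma, adjusted p = 0.204), and 0.75 (limma, adjusted p = 0.0625) in CD11b- B cells. The call was lost without CD11b+ replicate 1 or 3 or PM replicate 2 or 3 (limma, adjusted p = 0.0609 to 0.0669), and without PM replicate 1 CD11b- B cells passed at 0.99 (limma, adjusted p = 0.0133). Oip5os1 was at 9.20, 14.2 and 15.5 FPKM on average in PMs, CD11b- and CD11b+ B cells. It met the level rule through the B cell groups, so its order against PMs is a description. In the list as a whole, 2 of 7 tested were higher in CD11b+ B cells (AW112010 and Mirt1) and 1 lower (Hotairm1), and of 6 in CD11b- B cells 1 was higher (Mirt1) and 1 lower (Hotairm1), where 21.5% and 8.78%, and 25.8% and 11%, of all genes were called. With so few genes nothing is read from these counts, which were 3 higher and 1 lower in both comparisons without PM replicate 1. In CD11b+ B cells they were 1 higher and 1 lower with median-ratio scaling, where 12.6% and 12.2% of all genes were called, and 1 higher and 0 lower without CD11b+ replicate 1 or 3 or PM replicate 2.

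**Figure D4:**
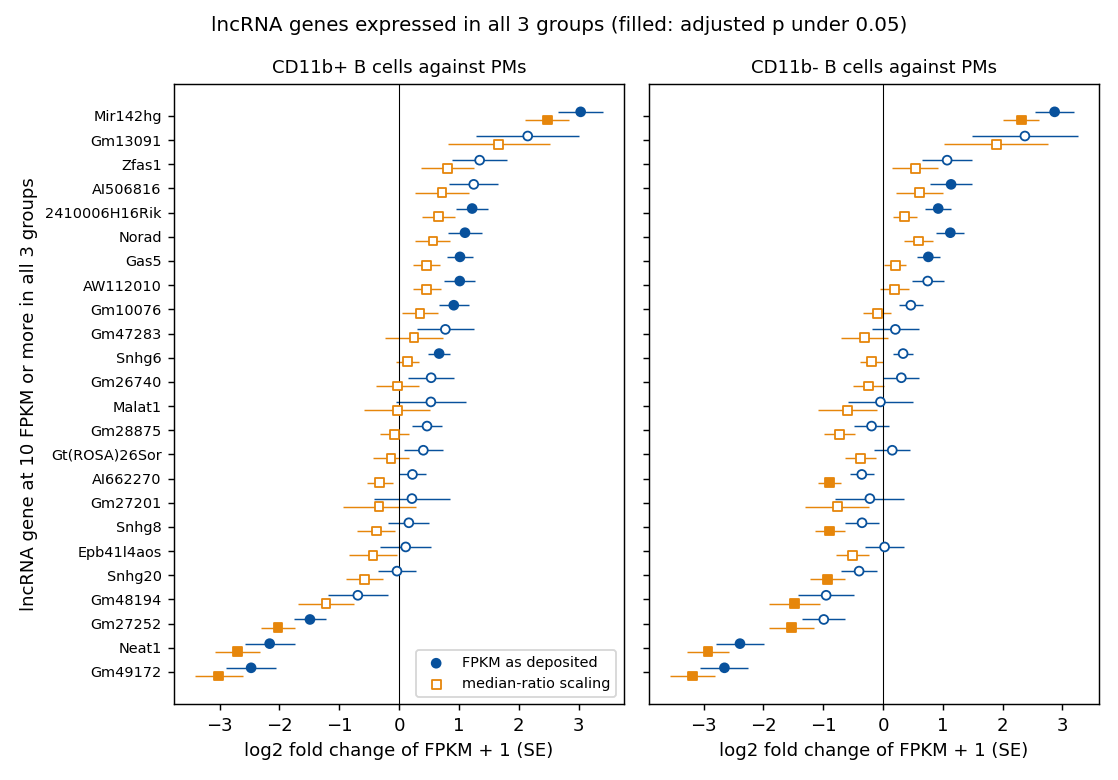
Log2 difference of FPKM + 1 (x axis, bars are SE) of the 24 shared lncRNA genes in CD11b+ (left) and CD11b- (right) B cells against PMs, with FPKM as deposited (circles) and after median-ratio scaling (squares), filled where the limma adjusted p was under 0.05. Mir142hg is filled at the right, and Neat1 and Gm49172 at the left, under both scalings, while the other filled circles above 0 become open squares.

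The snoRNA hosts supply guides for the modification of ribosomal RNA, and their spliced exons are mostly short-lived. Of 21 listed, 19 were in the table as lncRNA genes and 9 were among the 140. Gas5 (ENSMUSG00000053332, chr1:161034422-161038539, plus strand) was the highest and measured 79.7, 59.9 and 53.3 FPKM in PMs, 116, 116 and 93.4 FPKM in CD11b- B cells and 127, 109.5 and 156 FPKM in CD11b+ B cells. All B cell libraries were above all PM libraries. Snhg5 (ENSMUSG00000097195, chr9:88521050-88522929, minus strand), which reached 10 FPKM in B cells only, measured 4.19, 4.17 and 3.16 FPKM in PMs, 15.5, 11.5 and 9.87 FPKM in CD11b- B cells and 13.7, 15.2 and 15.6 FPKM in CD11b+ B cells. Of the 19, 6 were higher and 0 lower in CD11b+ B cells, or 1 higher and 0 lower with median-ratio scaling, and the median log2 difference was 0.67, or 0.14 so scaled, where 21.5% of all genes were higher and 8.78% lower with FPKM as deposited. For CD11b- B cells 4 were higher and 0 lower with a median of 0.34, and median-ratio scaling gave 1 higher, 2 lower and a median of -0.04, where 25.8% of all genes were higher and 11% lower as deposited. The shares of all genes called with that scaling were 12.6% higher and 12.2% lower in CD11b+ and 15.9% and 15% in CD11b- B cells. Leaving out 1 library gave 4 to 9 higher in CD11b+ and 2 to 6 in CD11b- B cells, the highest without PM replicate 1. Of all genes 14.7 to 22.2% were then higher in CD11b+ and 19.3 to 28% in CD11b- B cells, also highest without PM replicate 1. In CD11b- B cells the lowest were without CD11b- replicate 1 or 2, and in CD11b+ B cells without CD11b+ replicate 1 or 2. Gas5 itself had differences of 1.02 (SE 0.22, limma adjusted p = 0.0110) and 0.76 (limma, adjusted p = 0.0198), which fell short at 0.46 (limma, adjusted p = 0.176) and 0.20 with that scaling. The CD11b- call was also lost without CD11b- replicate 1 or 2 or PM replicate 2 or 3 (limma, adjusted p = 0.0561 to 0.081). Between CD11b+ and CD11b- B cells 0 of the 19 were called by limma.

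The annotation placed snoRNAs inside 13 of the 140 genes, 8 of them shared, 5 intermediate and none specific to a class. Besides the listed hosts these included 2410006H16Rik (ENSMUSG00000086841, chr11:62602877-62604807, plus strand), which measured 133, 91.7 and 98.6 FPKM in PMs, 166, 210.0 and 239 FPKM in CD11b- B cells and 205, 213 and 354 FPKM in CD11b+ B cells. Its difference of 1.22 (SE 0.27, limma adjusted p = 0.0113) in CD11b+ B cells was 0.66 with median-ratio scaling (limma, adjusted p = 0.123). AI506816 and 2700038G22Rik, both on chromosome 5 and named after their values were seen, have promoters that are 77.6% identical over 299 bases. Their transcripts were not compared. Hosts of this kind are known to start within a run of pyrimidines (C or T). For 8 of the 13 the RefSeq start lay within 50 bases of the GENCODE start. Of the 8, 6 had a run of at least 5 pyrimidines that reached to within 10 bases of the RefSeq start, against 44.9% of all promoters. The run covered that start only in 2410006H16Rik and began after it in the others. The 35 bases around 3 of these starts are shown, with the run in capitals.
2410006H16Rik, chr11:62602862-62602896, plus strand: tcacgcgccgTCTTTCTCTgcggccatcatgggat
Snhg1, chr19:8723472-8723506, plus strand: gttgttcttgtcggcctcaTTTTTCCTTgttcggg
Snhg5, chr9:88522878-88522912, minus strand: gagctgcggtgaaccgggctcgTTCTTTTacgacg

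Between CD11b+ and CD11b- B cells, limma called 0 of the 132 lncRNA genes that could be tested (lowest adjusted p = 0.168), where 0.0689% of 21778 genes were called. At an unadjusted p under 0.05, 18 were higher and 6 lower, against 4.65% and 3.04% of all genes tested. On whole reads recovered from the FPKM values, edgeR called 0 with a filter on low counts and 6 without, where 0.269% of 15588 and 1.53% of 37400 genes were called, and DESeq2 called 4, where 2.26% of 17324 genes were. The level rule tilts such counts, since 20 of the 140 genes met it in CD11b+ and 9 in CD11b- B cells alone, and nothing is read from them. Over the 77 genes at 10 FPKM or more in both B cell groups limma also called 0, where 0.0632% of 4744 genes of any type at that level were called. At an unadjusted p under 0.05, 7 were higher and 3 lower in CD11b+ B cells, where 4.89% and 6.58% of the 4744 were. The libraries did not overlap for 8 genes higher and 2 lower, where 8.68% and 12.1% did not. Of the 77, 54 (70.1%) were above 0, with a median log2 difference of 0.14, against 44.1% and -0.04 over the 4744. Without CD11b+ B cell replicate 3, in which many of these genes were highest, 41 of the 77 were above 0, with a median of 0.05, against 49.6% and -0.0027 over the 4744.

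The 5 genes with the lowest p were all higher in CD11b+ B cells. Of these, Gm5547, Gm42047, Gm47242 and Gm43916 met the level rule through CD11b+ B cells alone, and Gm36161 through PMs. Gm5547 (ENSMUSG00000104835, chr3:105815540-105817357, plus strand) measured 9.23, 6.33 and 17.7 FPKM in CD11b+ B cells, 0.977, 2.41 and 2.0 FPKM in CD11b- B cells and 3.62, 10.6 and 9.51 FPKM in PMs. The B cell groups did not overlap, and the difference was 2.04 (SE 0.37, limma adjusted p = 0.168). Gm42047 (ENSMUSG00000110631, chr8:121833247-121841178, plus strand) measured 22.5, 23.2 and 17.5 FPKM in CD11b+ B cells, 11.8, 10.1 and 6.18 FPKM in CD11b- B cells and 6.14, 0.612 and 4.45 FPKM in PMs. Its difference was 1.12 (SE 0.24, limma adjusted p = 0.263).

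Gm47242 (ENSMUSG00000114761, chr19:12539588-12540823, minus strand), which is B cell specific, measured 15.6, 13 and 14.2 FPKM in CD11b+ and 7.13, 9.29 and 6.04 FPKM in CD11b- B cells, a difference of 0.86 (SE 0.19, limma adjusted p = 0.270). Gm43916 (ENSMUSG00000108232, chr6:120951901-120952867, plus strand), antisense to Mical3 with overlapping exons, measured 16.5, 9.25 and 8.13 FPKM in CD11b+ and 3.50, 5.13 and 1.87 FPKM in CD11b- B cells, a difference of 1.46 (SE 0.35, limma adjusted p = 0.339). Neither pair of groups overlapped. Gm36161 (ENSMUSG00000114608, chr13:120010390-120018931, plus strand) was a gene of PMs, at 114, 76.3 and 112 FPKM. It measured 3.43, 2.63 and 0.545 FPKM in CD11b+ B cells (285 reads) and 0.119, 0.171 and 0.0413 FPKM in CD11b- B cells (17 reads). Its difference was 1.40 (SE 0.38, limma adjusted p = 0.427), and without CD11b+ B cell replicate 3 it was 1.85 (limma, adjusted p = 0.0478). DESeq2 called Gm5547, Gm43916, Gm42047 and Gm36161 higher, and edgeR without a filter these 4 and Gm47283 higher and Gm34095 lower. Gm5547, Gm42047 and Gm43916 met the rule through CD11b+ B cells and Gm34095 through CD11b- B cells alone, which favours these directions, and nothing is read from their calls. Of the B cell specific genes 13 of 29 were above 0, with a median of -0.05, against 55.1% and 0.03 over all genes tested. The sign of that median turned without CD11b- replicate 1 or 3 or CD11b+ replicate 2, and leaving out 1 library gave 11 to 16 of 29 and medians of -0.18 to 0.08.

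Markers of other cells also differed between the B cell groups, and their part in these differences was not tested. The 10 neutrophil markers summed to 640, 1540 and 215 FPKM in CD11b+ B cell replicates 1, 2 and 3 and stayed at 1.76 to 3.0 FPKM in CD11b- B cells. Cells bound by the antibody to Gr-1, which marks neutrophils, had been depleted, and the paper does not say how completely. Each of these markers had reads in at least 1 CD11b+ library, while Mpo was at 0 in replicate 3, and limma found 3 of the 10 higher. The 10 macrophage markers summed to 282, 261 and 83.7 FPKM in the same replicates, of which Lyz2 alone made up 261, 240 and 65.4 FPKM, while the other 9 summed to 20.7, 20.2 and 18.3 FPKM in CD11b+ and 4.17 to 7.36 FPKM in CD11b- B cells. Of the 10, limma called 0 of 9 tested. In CD11b+ B cells 8 of the 10 were higher with no overlap between the B cell groups, as were 9 of 10 neutrophil markers. So were 4 of 6 monocyte, 3 of 5 plasma cell, 1 of 6 T cell and 1 of 5 erythroid markers. Among genes of any type at 10 FPKM or more in both groups, 8.68% were. Plasma cell markers summed to 229 to 613 FPKM in CD11b+ and 77.8 to 136 FPKM in CD11b- B cells, monocyte markers to 43.1 to 64.5 and 22.5 to 29.98 FPKM, and erythroid markers to 27.6 to 39.1 and 1.40 to 21.2 FPKM. Few genes set much of these sums. In CD11b+ replicates 1, 2 and 3 the plasma cell marker Jchain was at 101, 83.9 and 449 FPKM. The monocyte marker Ly6c2 was at 28.6, 26.4 and 46.1 FPKM there. The plasma cell markers Prdm1 and Sdc1 overlapped between the B cell groups. T cell, NK cell and platelet markers summed to at most 2.88, 3.74 and 6.75 FPKM in any B cell library. In such bulk samples fewer cells of a type and less RNA per cell cannot be told apart.

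**Figure D5:**
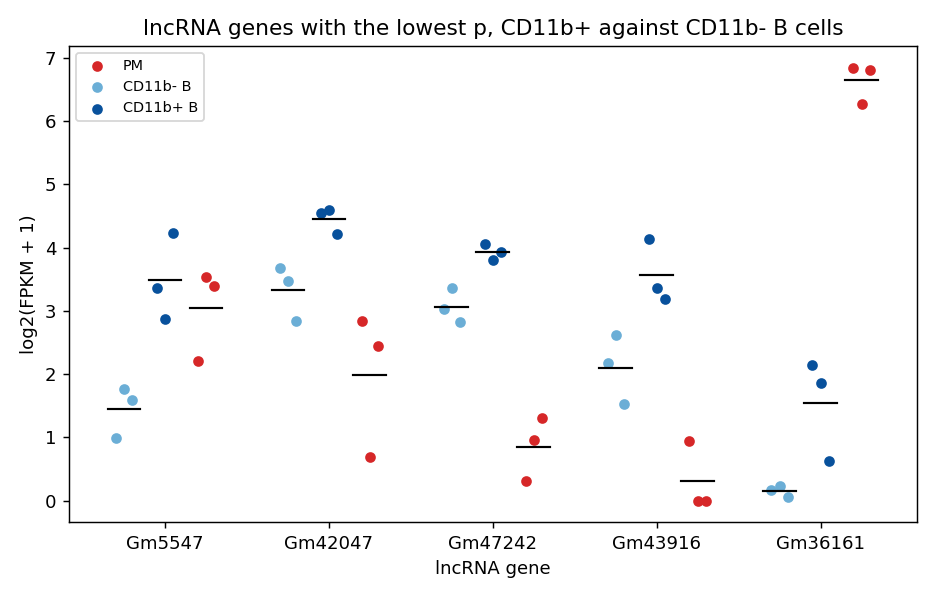
Levels, as log2(FPKM + 1), of the 5 lncRNA genes with the lowest p between CD11b+ and CD11b- B cells, with 1 point per library and bars at group means. In each gene the 3 CD11b+ B cell libraries lie above the 3 CD11b- B cell libraries, and Gm36161 is far higher in PMs.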

How the data were processed

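RNA sequencing libraries (SMART-seq HT, full-length cDNA with no strand mark, paired reads of 150 nt) of 3 groups of 3 samples were analysed. The authors trimmed reads (Trim Galore 0.4.4, Trimmomatic 0.36 and cutadapt 1.16 in the submitters' notes), aligned them with STAR 2.7.2b to GRCm38, counted them with featureCounts 1.6.1 and deposited FPKM values, which are used here; the notes also name GRCm39. A further deposited table of signal values, counts divided by DESeq2 1.20.0 size factors, held 11063 genes chosen by p-value and 110 of the genes described, and its values and comparison columns were not tested. FPKM values gave whole reads for 100% of values (tolerance 0.05).

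Tests were two-sided, by limma 3.58.1 (R 4.3.3, trend, Benjamini-Hochberg) on log2(FPKM + 1) of the 6 libraries compared, over all genes with a mean of at least 0.05 FPKM. As alternatives edgeR 4.0.16 and DESeq2 1.42.0 were run on the recovered reads, DESeq2 1.42.0 calling 4 of the genes described between the B cell groups, edgeR 0 with and 6 without a filter. The scripts were tested on simulated data. Adjusted p under 0.05 was called. Fold changes on this scale understate those of low genes. Coordinates are from GENCODE M21 (GRCm38), matched by gene ID, and overlaps use the positions in the table.

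Named were members of fixed lists, the 8 B cell specific and 8 macrophage specific genes with the highest means, the 5 shared genes with the highest means, the 5 lowest p between B cell groups and 2 genes on each side of the threshold. Others named were chosen after their values were seen. Members and lists were chosen with earlier results of these data known.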

Additional observations from a re-analysis of the deposited data

How the results depend on the processing

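Between CD11b+ and CD11b- B cells the count of lncRNA genes called was 0 by limma, 6 by edgeR on whole reads with no filter and 4 by DESeq2, and leaving out 1 library at a time gave 0 to 1. Limma called 15 higher and 0 lower of all 21778 genes, edgeR 42 and 0 of 15588 with a filter and 416 and 155 of 37400 without, and DESeq2 328 and 64 of 17324. Against PMs the counts called moved with the minimum level: 191 and 51 in CD11b+ B cells, and 192 and 48 in CD11b- B cells, at 5 and 20 FPKM. Leaving out 1 library gave 91 to 110 and 89 to 113. Over all genes the calls in CD11b+ B cells against PMs were 4760 higher and 1940 lower as deposited and 2766 and 2661 with median-ratio scaling, and in CD11b- B cells 5404 and 2306 against 3330 and 3152. Among the 140 genes median-ratio scaling gave 54 higher and 34 lower, and 55 and 39.

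The number of genes that met the rule was 312 at 5 FPKM, 67 at 20 FPKM, 395 on TPM at the same minimum of 10 and 61 without genes that overlap a gene of another type. B cell specific genes numbered 69, 9, 68 and 10 under these settings, macrophage specific 50, 14, 48 and 12, shared 60, 11, 76 and 13, and intermediate 133, 33, 203 and 26. Leaving out 1 library gave 132 to 150 genes in all, 26 to 33 B cell specific, 20 to 26 macrophage specific, 22 to 28 shared and 55 to 72 intermediate. Median-ratio scaling gave 136 genes in all, 22 B cell specific, 28 macrophage specific, 30 shared and 56 intermediate. Mir142hg kept its call in both comparisons under all 16 settings run. Neat1 (adjusted p = 0.0855, limma) and Gm49172 (adjusted p = 0.0585, limma) lost theirs in CD11b+ B cells only where genes with low FPKM were not filtered.

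The replicate block by the numbers in the sample titles gave 0 lncRNA genes called between the B cell groups, and 106 and 109 against PMs in CD11b+ and CD11b- B cells. These numbers are not a pairing in the labels, and deviations of same-numbered B cell libraries correlated at 0.28, -0.02 and 0.21. In the library codes, replicate 1 has the same number in both B cell groups, as has replicate 3, and replicate 2 has not. A block by the code numbers gave 0 lncRNA genes called and 0 of all 21778 genes, against 15 without a block. Whether a shared number means a shared animal or sort is not stated in the labels. At low levels depth is the limit: a gene with 0 reads in a group may still reach 3 reads.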
